A study of Mus musculus with 12 samples.

Results

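The genes that build and run the photoreceptor ribbon synapse were followed in rods and in whole retina, with and without *Abca4*. The set holds 10 genes: *Ctbp2*, *Bsn*, *Pclo*, *Cacna1f*, *Cacna2d4*, *Cabp4*, *Cplx4*, *Stx3*, *Slc17a7* and *Elfn1*. They are named by symbol and not by a threshold on measured values, but were chosen with earlier results of these data known, and are 10 of 56748 entries in the table of scaled counts and 10 of 55372 in the table of TPM (a share of transcripts, corrected for their length). All 10 passed the filter on low values in every comparison. RNA came from mice aged 2 months, in 4 groups of 3 libraries. Controls were littermates of the genotype RiboTag;i75-Rod-Cre, and knockouts, named *Abca4*Ko here, were RiboTag;Abca4-/-;i75-Rod-Cre, so that all 12 libraries come from animals with both the RiboTag allele and the rod Cre. The Cre switches on a tagged ribosomal protein in rods, and messages held on tagged ribosomes were pulled down by translating ribosome affinity purification (TRAP) to give the rod TRAP libraries, while RNA of the lysate before the pull-down gave the retina libraries. Mice were perfused with cycloheximide, which stalls ribosomes on their messages. The labels do not say whether replicates are single animals or pools, so p-values measure the spread between these libraries only.

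Photoreceptors release glutamate without pause in darkness and slow that release in light. Their terminals hold vesicles on a ribbon, a plate anchored at the active zone, where calcium entering through L-type channels triggers fusion. RIBEYE, a product of *Ctbp2*, is the main protein of the ribbon, and *Bsn* (bassoon) and *Pclo* (piccolo) encode very large scaffold proteins of the active zone, with bassoon tying the ribbon to the membrane. *Cacna1f* encodes the pore of the photoreceptor calcium channel, *Cacna2d4* its auxiliary alpha2delta subunit and *Cabp4* a calcium-binding protein that tunes the channel. *Stx3* encodes the syntaxin that ribbon synapses use for fusion, *Cplx4* a complexin that restrains and times it, and *Slc17a7* the transporter that loads vesicles with glutamate. *Elfn1* encodes a protein of the rod terminal that reaches across the cleft to the glutamate receptor of ON bipolar cells.

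Start-site sequences from RefSeq (GRCm38.p6) were available for 7 of the 10 genes, in 8 windows of the 250 bases before a start, and not for *Cacna2d4*, *Cabp4* or *Cplx4*. The windows differ in base composition, and no relation between them and the measured values was tested. Of the 5 windows clear of annotated exons, those with the most, the second most and the fewest CpG pairs are shown, with each CpG in capitals.
Pclo, chr5:14514668-14514917, plus strand: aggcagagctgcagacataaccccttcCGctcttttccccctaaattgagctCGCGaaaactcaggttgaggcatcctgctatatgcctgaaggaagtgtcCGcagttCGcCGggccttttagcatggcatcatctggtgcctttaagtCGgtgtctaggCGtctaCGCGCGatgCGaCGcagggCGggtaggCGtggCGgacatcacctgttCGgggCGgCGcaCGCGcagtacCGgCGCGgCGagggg
Slc17a7, chr7:45163671-45163920, plus strand: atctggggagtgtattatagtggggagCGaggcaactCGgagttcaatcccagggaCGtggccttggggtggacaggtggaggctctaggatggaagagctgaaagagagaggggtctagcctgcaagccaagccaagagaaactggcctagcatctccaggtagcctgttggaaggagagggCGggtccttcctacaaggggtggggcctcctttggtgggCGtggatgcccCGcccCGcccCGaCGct
Ctbp2 (upstream start), chr7:133081861-133082110, minus strand: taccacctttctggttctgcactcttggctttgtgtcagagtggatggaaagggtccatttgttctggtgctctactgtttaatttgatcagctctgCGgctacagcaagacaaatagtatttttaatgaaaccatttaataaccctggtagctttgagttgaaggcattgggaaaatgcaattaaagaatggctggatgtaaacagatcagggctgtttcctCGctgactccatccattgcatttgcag
The *Pclo* window holds 25 CpG pairs, and 90.4% of all windows hold at most that many. The *Bsn* window, which overlaps annotated exons and is not shown, holds 32 (96.0%). *Slc17a7* has 9, *Elfn1* and *Stx3* have 6 each, which is also the median of all windows, and *Ctbp2* has 2 at this start. On either strand, the letters TAATCC, the core that the photoreceptor factor CRX binds, were found in 1 of the 8 windows and in 6.25% of the windows of all 32851 starts. That match lies at the downstream start of *Ctbp2*, 121 bases before it, in a window that overlaps annotated exons. It is shown in capitals within a stretch of 30 bases.
Ctbp2 (downstream start), chr7:133015351-133015380, minus strand: taaggtttcagaGGATTAataatttaggtc
The letters TGCTGA, a partial site of the rod factor NRL, were in 0 of the 8 windows against 16.1% of all windows, and CANNTG, an E-box, in 6 of 8 against 66.2%. A match of letters is a description and not a bound site.

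The deposited scaled counts summed to about the same total in every library of a fraction, 17096515 to 17097707 in rod TRAP and 17860761 to 17862326 in retina, as a result of the authors' scaling. *Abca4*, the deleted gene, was at 53193 to 61017 scaled counts in the control rod TRAP libraries. It was at 195, 365 and 13156 in *Abca4*Ko rod TRAP replicates 1 to 3 and at 153, 366 and 8124 in the *Abca4*Ko retina libraries, against 37619 to 38929 in control retina. Both libraries labelled *Abca4*Ko replicate 3 thus held 23.5% (rod TRAP) and 21.3% (retina) of the control mean, and the other 4 held 0.349% to 0.958%. For the 10 genes, changes of call without these libraries are also given, with part of the fold changes. Counts of paralogs, wider synapse genes and markers in *Abca4*Ko, and medians by GC class, include them. The 10 rod markers summed to 209595 to 240528 CPM (the scaled count as a share of 1000000) in rod TRAP and to 62910 to 117191 in retina, and all 10 were higher in rod TRAP. All 8 cone, 8 amacrine cell and 8 ganglion cell markers were lower in control rod TRAP, as were 8 of 10 bipolar cell and 7 of 8 Müller glia markers, and no marker was at 0 in all libraries of a group. In bulk RNA, fewer cells of a type and less RNA per cell cannot be told apart.

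The 10 genes spanned a wide range of levels. On the TPM scale, which allows genes to be compared, the level in control rod TRAP was highest for *Slc17a7* with 3069 ± 253 TPM (SD, n = 3 here and for all group means), followed by *Cplx4* with 1408 ± 57.4 and *Stx3* with 833 ± 83.9. *Cabp4* followed with 655 ± 30.8, *Cacna2d4* with 309 ± 25.9 and *Ctbp2* with 208 ± 10.0. *Elfn1* was at 104 ± 0.755 and *Cacna1f* at 100.3 ± 2.63. The scaffold genes *Pclo*, at 7.33 ± 0.907, and *Bsn*, at 4.63 ± 0.153, were far below the rest. No neighbours in this order overlapped between libraries of control rod TRAP. In *Abca4*Ko rod TRAP the order was the same, but *Elfn1* and *Cacna1f* overlapped, as did *Pclo* and *Bsn*, and leaving out replicate 3 changed none of this.

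Whole retina gave another order. In control retina *Slc17a7* led with 2890 ± 191 TPM and *Stx3* came next with 648 ± 60.7. *Cabp4*, at 438 ± 28.4, and *Cplx4*, at 406 ± 113, overlapped, and *Bsn*, at 21.8 ± 4.30, lay above *Pclo*, at 4.93 ± 1.38. The rank of *Cplx4* moved from the second in rod TRAP to the fourth in control retina, and *Bsn* was no longer the lowest. *Ctbp2* (82.7 ± 17.3) overlapped with *Cacna1f* (75.6 ± 5.31), and *Cacna1f* with *Elfn1* (71.1 ± 9.18). In *Abca4*Ko retina, *Cplx4* and *Cabp4*, *Elfn1* and *Cacna1f*, and *Bsn* and *Pclo* overlapped, the last pair only with replicate 3 included. The spread of *Bsn* was widest there, with 7.7 to 25.2 TPM.

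**Figure D1:**
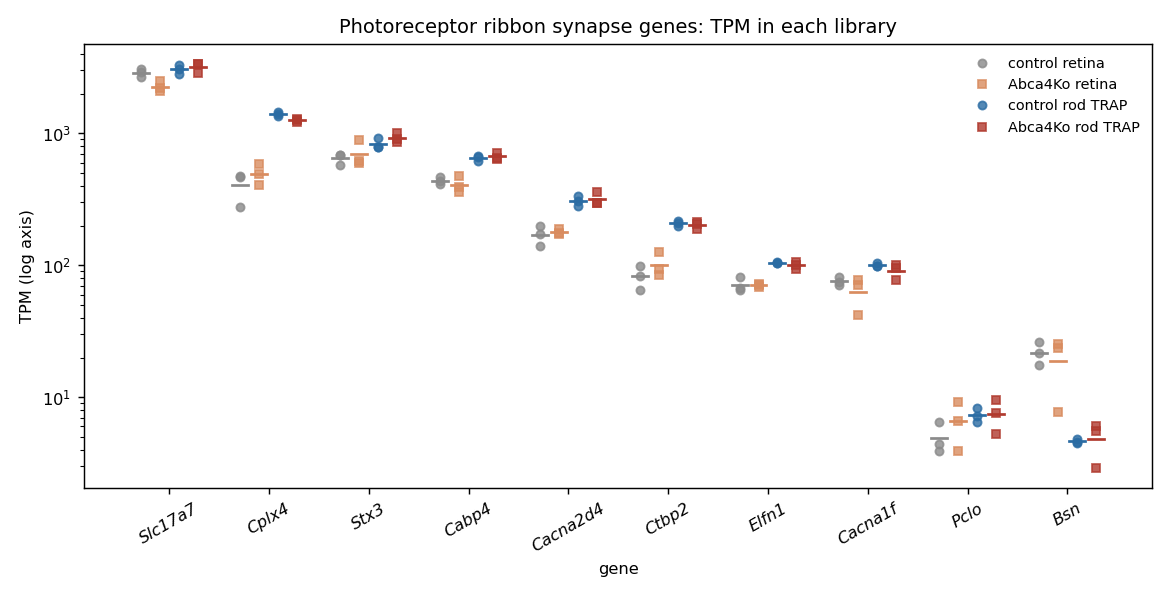
TPM (log axis) of each gene in each library, with the 4 groups side by side and a bar at the mean of 3 libraries. *Cplx4* and *Ctbp2* sit higher in rod TRAP than in retina, and *Bsn* sits lower. Within a fraction the genotypes overlap, except for *Cplx4* in rod TRAP and *Slc17a7* in retina.

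The comparison of rod TRAP with retina asks which of these messages are concentrated on rod ribosomes relative to the whole tissue. In control mice 9 of the 10 genes were higher in rod TRAP and 1, *Bsn*, was lower (limma adjusted p under 0.05). Over all genes tested, 36.6% were called higher and 38.8% lower. The median log2 fold change of the 10 genes was 0.86, against -0.03 for all genes and 1.33 for the rod markers. *Cplx4* and *Ctbp2* had the largest rises, 4.46-fold and 3.34-fold, and *Bsn* was 3.61-fold lower. Without the rescaling used here the median of all genes moved from -0.03 to -0.62 and that of the 10 genes to 0.22. On that scale 4 genes kept a call (*Cplx4*, *Ctbp2* and *Cacna2d4* higher, *Bsn* lower) and *Slc17a7* turned to -0.26 (adjusted p = 0.0515), while the share of higher genes among all calls fell from 48.6% to 26.3%.

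The ribbon and active zone genes split. *Ctbp2* was at 420, 434 and 403 CPM in control rod TRAP replicates 1 to 3 and at 148, 144 and 111 CPM in control retina, so that every rod TRAP library lay above every retina library. Its log2 fold change was 1.74 (SE 0.13, adjusted p = 7.27e-08). The tables are per gene, so RIBEYE and the transcriptional co-repressor CtBP2, which share this gene, are not distinguished, and in the GRCm38 annotation 314 of its 6220 exon bases overlap *Fgfr2* on the same strand. *Ctbp1*, the paralog that makes the related co-repressor, was lower in rod TRAP, at -0.40 (SE 0.11, adjusted p = 0.00524), but at 0.05 after centring on GC content and length, described further on.

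*Bsn* was at 42.8, 39.6 and 43.3 CPM in control rod TRAP and at 148, 173 and 166 CPM in control retina. It was the only one of the 10 with every rod TRAP library below every retina library, with a log2 fold change of -1.85 (SE 0.12, adjusted p = 2.07e-08). Bassoon also serves conventional synapses of the inner retina, and whether that bears on this value was not tested. *Pclo*, the other large scaffold, was at 76.1, 66.6 and 66.2 CPM in control rod TRAP and at 38.8, 43.0 and 31.6 CPM in retina. It was higher in rod TRAP by 0.97 (SE 0.14, adjusted p = 3.10e-05). The pair thus lay on opposite sides of 0. Both have very long transcripts (15.94 kb for *Bsn*, 20.08 kb for *Pclo*), and their GC content differs (59.76% and 45.45%). After the centring on GC content and length *Pclo* was at 0.05 and lost its call, while *Bsn* was at -1.34. The part of length or base composition in these values was not tested.

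Among the genes of the calcium channel, *Cacna2d4* showed the largest difference. It was at 938, 865 and 834 CPM in control rod TRAP against 444, 437 and 376 CPM in retina, a log2 fold change of 1.16 (SE 0.11, adjusted p = 1.04e-06). *Cabp4* was at 526, 484 and 522 CPM against 318, 251 and 337 CPM, with 0.85 (SE 0.13, adjusted p = 6.13e-05). *Cacna1f* was at 371, 354 and 360 CPM against 243, 222 and 233 CPM, with 0.72 (SE 0.11, adjusted p = 4.77e-05). For all of these genes the libraries of the fractions did not overlap. *Cabp4* shares 131 exon bases with *Gpr152* on the opposite strand, and whether strand was used in counting is not stated.

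*Cplx4* had the largest rise of the set. It was at 1531, 1486 and 1428 CPM in control rod TRAP and at 455, 368 and 262 CPM in retina, a log2 fold change of 2.16 (SE 0.17, adjusted p = 1.01e-07). The highest of its retina libraries was 1.74 times the lowest, against 1.07 times in rod TRAP. *Stx3* was at 1117, 1106 and 1339 CPM against 886, 739 and 750 CPM, with 0.67 (SE 0.12, adjusted p = 0.000295).

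*Slc17a7* had the smallest difference. It was at 4492, 4182 and 5016 CPM in control rod TRAP and at 3952, 3069 and 4185 CPM in retina. On these levels, scaled over all 12 libraries, 1 retina library lay just above the lowest rod TRAP library, and in the fit of the 6 control libraries the log2 fold change was 0.38 (SE 0.14, adjusted p = 0.0217). That call was lost under 7 of the 16 other settings tried. *Elfn1* varied little within a fraction, with 237, 244 and 240 CPM in rod TRAP and 142, 138 and 137 CPM in retina, and was higher by 0.87 (SE 0.11, adjusted p = 8.18e-06).

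**Figure D2:**
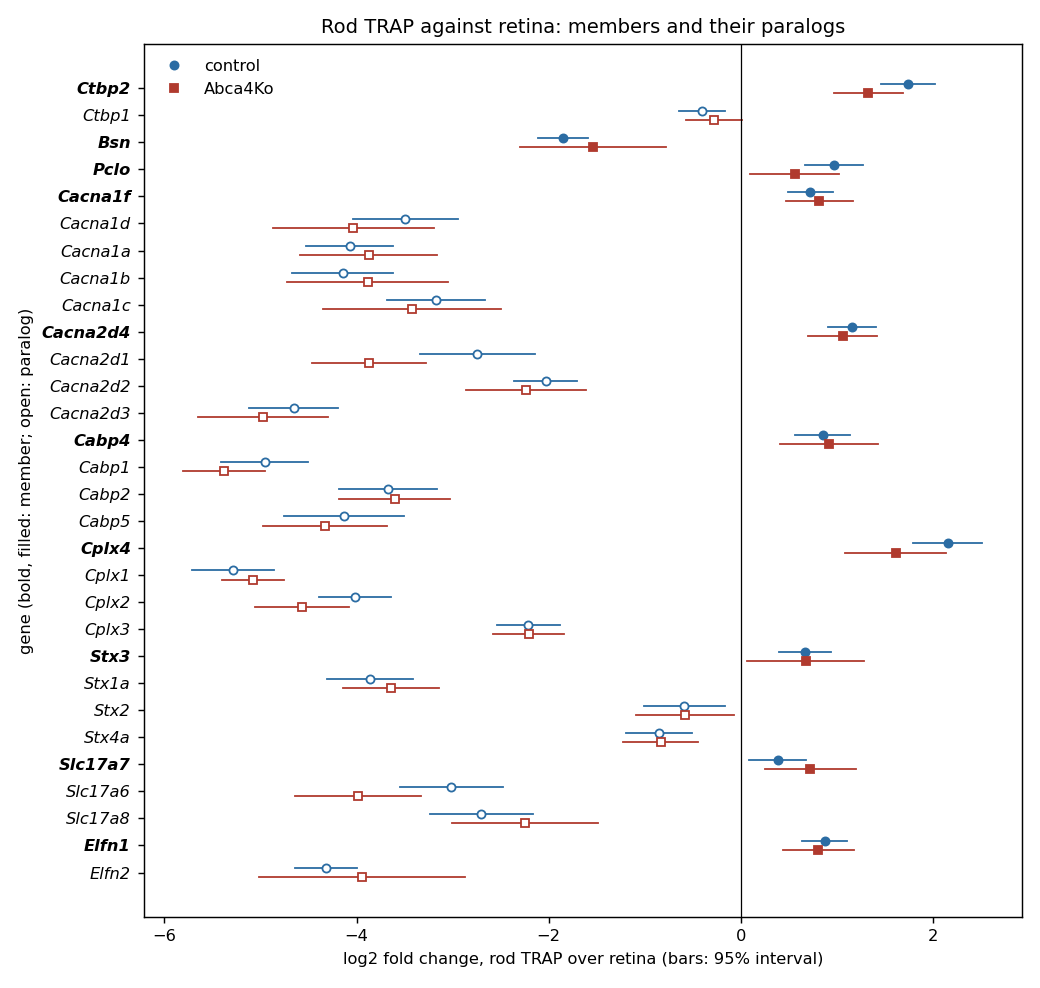
log2 fold change of rod TRAP over retina with its 95% interval, in control (circles) and *Abca4*Ko (squares), for the 10 genes (bold, filled) and 20 paralogs (open). All genes of the set but *Bsn* lie right of 0 and all paralogs left of it. Without rescaling, *Slc17a7* in control moves to -0.26. After GC and length centring *Ctbp1* moves to 0.05 in control and 0.07 in *Abca4*Ko, and *Pclo* in *Abca4*Ko to -0.01.

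The paralogs lay on the other side. The 20 close paralogs compared with these genes were all lower in control rod TRAP (18 after GC and length centring, where *Stx2* was at -0.24 and *Ctbp1* at 0.05, neither called), from -0.40 for *Ctbp1* to -5.29 for *Cplx1*, with a median of -3.58. Of the other pore-forming channel genes, *Cacna1d* was at -3.49, *Cacna1c* at -3.17, *Cacna1a* at -4.07 and *Cacna1b* at -4.15. Of the alpha2delta genes, *Cacna2d2* was at -2.03, *Cacna2d1* at -2.74 and *Cacna2d3* at -4.65. *Cabp1*, *Cabp2* and *Cabp5*, which bind calcium as *Cabp4* does, were at -4.95, -3.67 and -4.13. *Cplx3*, a complexin of ribbon synapses like *Cplx4*, was at -2.21, and the conventional complexins *Cplx1* and *Cplx2* were at -5.29 and -4.01. *Slc17a6* and *Slc17a8*, which encode the other vesicular glutamate transporters, were at -3.01 and -2.70, and *Elfn2* at -4.32. Several were below 1 CPM in rod TRAP, among them *Cacna1d* (0.732 CPM) and *Stx1a* (0.0732 CPM), and their folds understate the difference because 0.5 CPM is added before the logarithm.

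A wider list of 63 other synapse genes, which includes these paralogs, had 21 called higher and 37 lower in control rod TRAP, with a median of -1.06, against the 36.6% higher and 38.8% lower of all genes. The groups within it are small, and their counts are a description, not tested against all genes. The genes named from it here all passed the test. Of 12 active zone genes, 5 were higher and 6 lower. *Rims2*, a scaffold that tethers calcium channels, was at 3.20 and *Unc13b*, which primes vesicles, at 2.73. *Rimbp2*, a binding partner of these scaffolds, was at -4.39. Of 17 genes of calcium channels and calcium control, 3 were higher and 14 lower. Here the plasma membrane calcium pumps parted, with *Atp2b1* at 3.60 and *Atp2b2* at -5.42. Of 13 fusion genes 4 were higher and 8 lower, the calcium sensor *Syt2* at -5.36 among them. Of 8 vesicle and transmitter genes 3 were higher and 4 lower, and of 13 scaffold and trans-synaptic genes 6 were higher and 5 lower. *Dmd*, which encodes dystrophin, a component of the complex at the photoreceptor terminal, had the largest rise of the list at 3.77, and *Nrxn2*, a neurexin of presynaptic membranes, was at -4.83.

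Base composition moved with these fold changes across all genes. In control, the median log2 fold change of rod TRAP over retina was 1.24 for the 3471 genes whose longest coding transcript has under 45% GC, 0.29 at 45 to 50%, -0.23 at 50 to 55% and -0.65 for the 3812 genes at 55% GC or more. *Ctbp2* (55.05% GC) lay at the 99.97th percentile of its GC class, *Elfn1* (57.72%) at the 98.6th, *Cacna2d4* (52.65%) at the 96.1st, *Cabp4* (53.04%) at the 91.6th and *Slc17a7* (58.52%) at the 90.7th. *Cplx4*, with the lowest GC content of the set (44.79%), lay at the 76.3rd percentile of its class, *Pclo* (45.45%) at the 73.2nd, *Stx3* (47.26%) at the 62.8th and *Bsn* (59.76%) at the 26.7th. *Cplx4* lies close to the class edge at 45% GC, and its percentile depends on that edge. Its value of 2.16 was above the 90th percentile of the next class, at 45 to 50% GC (1.68). When each library was centred on classes of GC content and length, *Ctbp2* became the highest of the set with 2.05 and *Cplx4* was at 1.56. *Bsn* was at -1.34, *Slc17a7* at 1.21, and the calls of *Pclo* (0.05, adjusted p = 0.605) and *Stx3* (0.22, adjusted p = 0.0681) were lost. *Ctbp2*, *Cplx4*, *Cacna2d4* and *Bsn* kept their calls in all 16 other settings tried in control and in all 17 in *Abca4*Ko. How much of a difference goes with base composition was not tested.

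**Figure D3:**
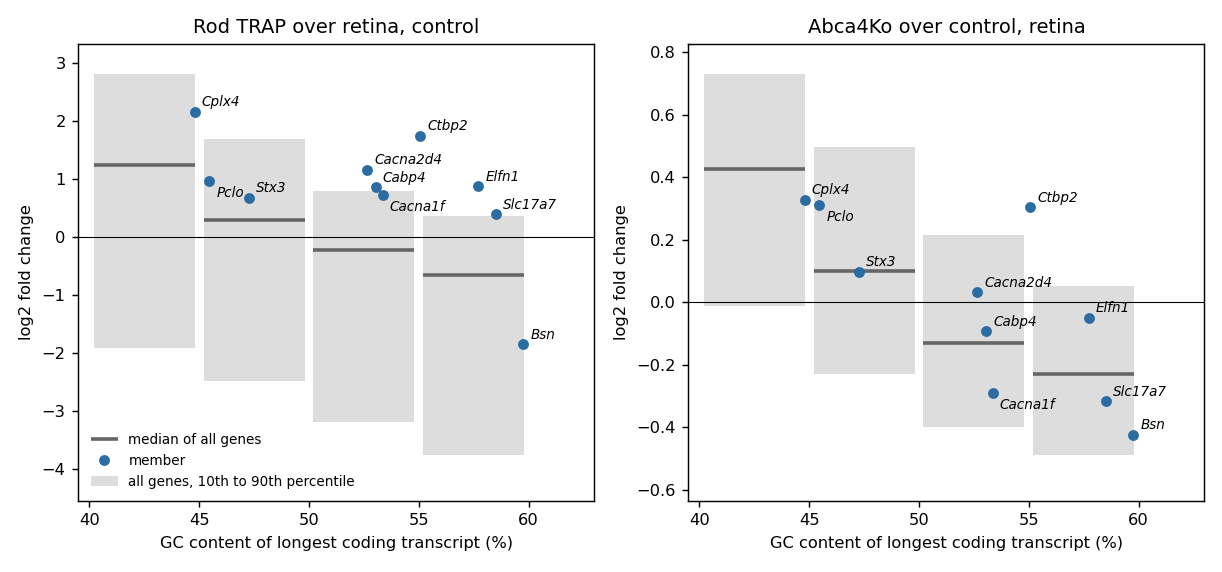
log2 fold change against the GC content of the longest coding transcript (percent), for rod TRAP over retina in control (left) and *Abca4*Ko over control in retina (right). Grey bars span the 10th to the 90th percentile of all genes in a GC class with the median as a line, and the points are the 10 genes, of which *Ctbp2* lies above the bar in both.

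In *Abca4*Ko mice the same comparison called 8 genes higher and 1 lower, against 30.4% and 33.7% of all genes. The median of the 10 genes was 0.81, against 0.00 for all genes. *Cplx4* was again the highest at 1.61 (SE 0.24, adjusted p = 0.000143), followed by *Ctbp2* at 1.33 (SE 0.16, adjusted p = 3.51e-05) and *Cacna2d4* at 1.06 (SE 0.16, adjusted p = 0.000183). *Bsn* was at -1.54 (SE 0.34, adjusted p = 0.00266). *Cabp4* was at 0.92, *Cacna1f* at 0.82, *Elfn1* at 0.80 and *Slc17a7* at 0.73, all called.

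*Stx3* did not pass the test, with 0.68 (SE 0.27, adjusted p = 0.0503). It was at 1352, 694 and 633 CPM in *Abca4*Ko retina replicates 1 to 3 and at 1595, 1197 and 1274 CPM in *Abca4*Ko rod TRAP, so that 1 retina library lay within the rod TRAP values. Deviations of libraries with the same number correlated, but rod TRAP replicate 2 correlated more with a retina library of another number. In the fit that pairs libraries by replicate number *Stx3* was called (adjusted p = 0.00206). *Pclo* was at 54.4, 68.4 and 86.8 CPM in *Abca4*Ko rod TRAP and at 37.2, 46.5 and 57.8 CPM in retina, which overlap, with 0.56 (SE 0.21, adjusted p = 0.0359), a call that was lost under 10 of the 17 other settings tried. Without both libraries labelled *Abca4*Ko replicate 3, *Pclo* (0.55, adjusted p = 0.0699) and *Slc17a7* (0.55, adjusted p = 0.160) lost their calls and 7 genes were called. Of the paralogs, 19 of 20 were lower, and *Ctbp1* was at -0.28 (adjusted p = 0.0871). After GC and length centring 18 were called, and *Ctbp1* at 0.07 and *Stx2* at -0.34 were not. The *Stx2* call held in only 5 of the 17 other settings tried. Of the 63 synapse genes, 20 were higher, led by *Dmd* at 2.89 and *Atp2b1* at 2.70, and 35 lower, among them *Rims1* at -4.90.

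The comparison of *Abca4*Ko with control asks whether loss of *Abca4* moves these messages in rods at this age. In rod TRAP 0 of the 10 genes were called by limma, where 1.13% of all genes were. At an unadjusted p under 0.05 there were also 0, against 10.4% of all genes. The log2 fold changes ran from -0.10 for *Cplx4* to 0.22 for *Stx3*. For *Ctbp2* the difference was 0.01 with a 95% interval from -0.16 to 0.18, and for *Elfn1* it was 0.00 (-0.17 to 0.16). *Cacna1f* was at -0.09 (-0.25 to 0.08), *Cacna2d4* at 0.05 (-0.18 to 0.28) and *Cabp4* at 0.08 (-0.17 to 0.34). The intervals were widest for *Bsn*, 0.00 (-0.33 to 0.34), and *Pclo*, 0.01 (-0.28 to 0.31), the longest transcripts. That of *Stx3* (2.81 kb), at 0.22 (-0.07 to 0.51), was nearly as wide as that of *Pclo*. *Slc17a7* was at 0.14 (-0.07 to 0.34). In none of the 10 were the *Abca4*Ko and control libraries apart on the tested scale, where 17.6% of all genes were. Without *Abca4*Ko replicate 3 again 0 of the 10 were called (0.935% of all genes), with values from -0.14 for *Pclo* to 0.27 for *Stx3*.

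*Cplx4* is given in full because it was called when 1 library was left out. It was at 1508, 1257 and 1293 CPM in *Abca4*Ko rod TRAP and at 1531, 1486 and 1428 CPM in control, so that *Abca4*Ko replicate 1 lay among the control values and the other 2 below them. Its log2 fold change was -0.10 (95% interval -0.33 to 0.12). Without *Abca4*Ko rod TRAP replicate 1 it was -0.21 and called (adjusted p = 0.0288), in a fit where 4.59% of all genes were called. No other call was made for any of the 10 genes in the 15 other settings. On the TPM scale its values were 1230 to 1287 in *Abca4*Ko and 1348 to 1462 in control, which do not overlap, as is the case for 14.3% of all genes at that scale. The limma test of log2(TPM + 1) gave -0.16 (adjusted p = 0.516).

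In rod TRAP, *Abca4*Ko replicate 1 stood apart by transcript length. Against the other 2 libraries of its group, its rod TRAP library was lower by a median of -0.53 (log2) for transcripts of 10 kb or more and higher by 0.17 for those under 2 kb, and its retina library by -0.26 and 0.31. *Bsn* (15.94 kb) was at 29.4 CPM there against 48.9 and 48.0 in the other *Abca4*Ko rod TRAP libraries, and *Pclo* (20.08 kb) at 54.4 against 68.4 and 86.8. *Stx3* (2.81 kb) and *Cabp4* (1.43 kb) were highest in that library, at 1595 and 616 CPM. Control rod TRAP libraries stayed within -0.07 to 0.05 of each other in the longest class. In retina *Abca4*Ko replicate 1 did not stand apart. Control replicate 3 was at -0.53 in the longest class there, control replicate 2 at 0.36 and *Abca4*Ko replicate 3 at 0.45. The part of length in the genotype values was not tested.

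**Figure D4:**
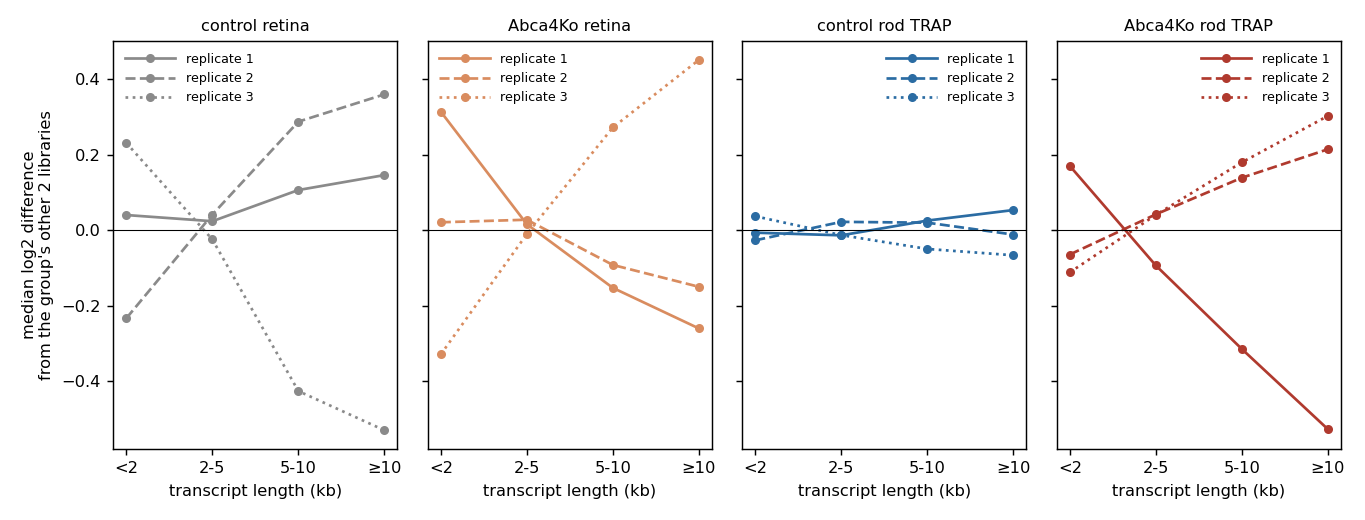
Median log2 difference of each library from the other 2 of its group, by transcript length class (kb), 1 line per replicate in each of the 4 groups. *Abca4*Ko replicate 1 falls with length in both fractions, to -0.53 in rod TRAP, while the control rod TRAP libraries stay near 0. In retina it falls to -0.26, and control replicate 3 falls further, to -0.53.

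In retina, again 0 of the 10 genes were called by limma between genotypes, where 0.106% of all genes were. At an unadjusted p under 0.05 there were also 0, against 12.0% of all genes. The spread was larger here and so were the intervals. *Bsn* had the lowest value, -0.42 (95% interval -1.11 to 0.26), with 66.8, 167 and 156 CPM in *Abca4*Ko and 148, 173 and 166 CPM in control. Without *Abca4*Ko retina replicate 1 it was 0.01. *Cplx4* was at 0.33 (-0.28 to 0.94), *Pclo* at 0.31 (-0.14 to 0.77) and *Ctbp2* at 0.30 (-0.11 to 0.72). *Slc17a7* was at -0.32 (-0.84 to 0.21) and *Cacna1f* at -0.29 (-0.66 to 0.08), and the remaining 4 lay between -0.09 and 0.10. No gene of the set had its groups apart on the tested scale, where 19.9% of all genes did. On the TPM scale *Slc17a7* did, with 2109 to 2474 in *Abca4*Ko against 2693 to 3073 in control, as 11.7% of all genes did (limma on log2(TPM + 1), -0.36, adjusted p = 0.785). Without *Abca4*Ko retina replicate 3 the TPM values of *Slc17a7* in *Abca4*Ko were 2199 and 2474, still below those of control. In the fit of scaled counts its log2 fold change was then -0.15, against -0.32 with that library. Again 0 of the 10 genes were called in that fit (0.126% of all genes), with values from -0.62 for *Bsn* to 0.44 for *Cplx4*.

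The genotype difference in retina also moved with base composition. The median over all genes was 0.43 under 45% GC, 0.10 at 45 to 50%, -0.13 at 50 to 55% and -0.23 at 55% GC or more. *Cplx4* and *Pclo*, with the lowest GC content of the set, had positive values, and *Bsn* and *Slc17a7*, with the highest, had negative ones. The others lay on both sides of 0, with *Ctbp2* (55.05% GC) at 0.30 and *Cacna1f* (53.35%) at -0.29. After centring on GC and length classes *Cplx4* was at 0.08, *Pclo* at -0.02 and *Slc17a7* at -0.03, while *Ctbp2* was at 0.50 (adjusted p = 0.643), the largest of the set, from the 97.2nd percentile of its GC class. In rod TRAP the class medians lay between -0.03 and 0.02. The part of base composition or length in the genotype values was not tested.

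**Figure D5:**
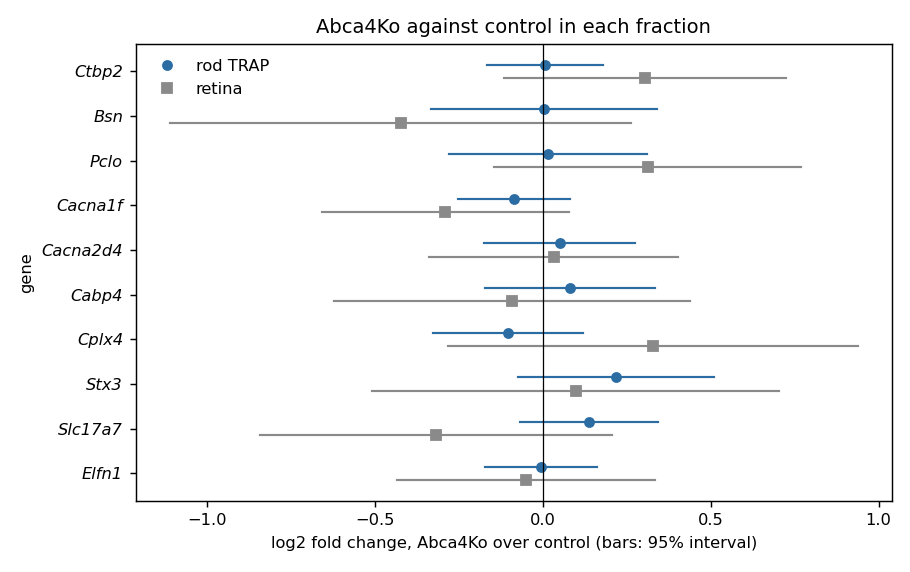
log2 fold change of *Abca4*Ko over control with its 95% interval for each gene, in rod TRAP (circles) and retina (squares). Every interval covers 0, and those of retina are wider.

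The difference between the genotype effects in rod TRAP and in retina was tested as an interaction. No member passed (0 of 10 by limma), where 0.00579% of all genes did, and 0 had an unadjusted p under 0.05 (11.3% of all genes). Values ran from -0.46 for *Cplx4* (95% interval -1.14 to 0.22, adjusted p = 0.598) to 0.43 for *Slc17a7* (-0.10 to 0.96, adjusted p = 0.527). *Bsn* was at 0.40 (-0.43 to 1.23) and *Ctbp2* at -0.32 (-0.76 to 0.12). Without both libraries labelled *Abca4*Ko replicate 3 *Cplx4* was at -0.55 and *Slc17a7* at 0.26, and without both of replicate 1 at -0.29 and 0.54. Of the 63 synapse genes, 0 were called by limma in any of the comparisons that involve genotype. At an unadjusted p under 0.05 there was 1 in rod TRAP, of 52 tested (10.4% of all genes), and there were 10 in retina (12.0% of all genes) and 11 in the interaction (11.3%). In rod TRAP 1 of 8 cone markers was called higher in *Abca4*Ko, and they summed to 452 to 535 CPM in *Abca4*Ko and 349 to 376 CPM in control, and rod markers to 209595 to 240528 against 216265 to 230923 CPM. All 8 cone markers had positive values in rod TRAP and negative ones in retina (0 called there), where they summed to 944 to 1119 CPM in *Abca4*Ko and 1057 to 1471 CPM in control. At an unadjusted p under 0.05 there were 7 of the 8 in rod TRAP, 2 in retina and 6 in the interaction, where 0 were called by limma. The part of other cell types in the values above was not tested.

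The patterns over the 12 libraries of the genes with the highest and the lowest fold change between fractions were compared with those of all genes with a mean of at least 5 CPM. The 12 points share their fraction, so the correlations mostly restate the gap between rod TRAP and retina. *Cplx4* was most like *Prom1*, which encodes prominin-1 of the photoreceptor outer segment (Pearson r of log2 CPM 0.998), *Mdm1* (0.998) and *Gm10052* (0.998), and 1926 of 10960 genes had r over 0.95 with it. *Bsn* was most like *Plec*, which encodes the cytoskeletal linker plectin (0.996), *Plxnd1* (0.993) and the kainate receptor gene *Grik5* (0.992), and 554 genes had r over 0.95.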

How the data were processed

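Libraries were made with a SMARTer Ultra Low Input kit from 5 ng of lysate RNA and 10 ng of TRAP RNA. The submitters' processing notes name CASAVA 1.8.2, HISAT2, DESeq2, edgeR and the build GRCm39, without saying which step made which table. The authors deposited a table of scaled counts, a score in which the reads of each library appear to have been brought to the total of its fraction and rounded. The totals therefore do not show the depth. The authors also deposited TPM, to 1 decimal. Counting of multi-mapped reads and strand is not given in the sources used here. No column of values was left unused.

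Library totals were adjusted with trimmed-mean-of-M factors (trims 0.3 and 0.05), and log2(CPM + 0.5) was fitted in R 4.3.3 by limma 3.58.1 with robust variance trends. Tests were two-sided, over genes with at least 10 scaled counts in at least 3 libraries. A call is a Benjamini-Hochberg adjusted p under 0.05 over all of these genes. A count model was not used because the values are not raw counts. Folds of genes near 0 are understated. Levels given in CPM use factors from all 12 libraries. Groups came from the labels. The fits were run on simulated counts with known folds in a small set of genes and no effects of GC, length or pairing. That run does not show how they behave where such effects are present. The 10 genes, the lists and the tests were chosen with earlier results of these data known. Of the list fixed for the wider synapse set, 1 gene is not reported here and stays out of its counts. Genes named beyond the 10 were their paralogs, the 4 largest called rises and falls in the rest of the wider list with a mean of at least 5 CPM in a comparison, and the 3 genes most alike to the highest and the lowest of the 10.

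Deviations from group means over 10961 genes correlated between rod TRAP and retina libraries of the same number. The r was 0.23 to 0.43 for control and 0.27 to 0.56 for Abca4Ko. Abca4Ko rod TRAP replicate 2 (r = 0.27) correlated more with a retina library of another number. By this measure the other libraries matched by number, and the match of Abca4Ko replicate 2 is less clear. Whether libraries of the same number share animals was not tested, and the main fits do not pair them. Transcript lengths and GC content came from the longest coding transcript in GENCODE M21 (GRCm38), by symbol. GC and length centring subtracted from each library the median deviation of 20 GC classes and 10 length classes.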

Additional observations from a re-analysis of the deposited data

How the results depend on the processing

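Calls between fractions changed most with library scaling. With the authors' scaling alone, 4 of the 10 genes were called between fractions in control (10 with rescaling) and 4 in Abca4Ko (9 with rescaling), and Slc17a7 in control turned to -0.26. After GC and length centring, which was chosen after seeing the data, Ctbp1 in control was at 0.053 and Pclo in Abca4Ko at -0.015, both with and without the replicate block. Leaving out 1 library at a time gave 9 to 10 calls in control and 7 to 9 in Abca4Ko between fractions, 0 to 1 between genotypes in rod TRAP (1 without Abca4Ko rod TRAP replicate 1), and 0 to 0 in retina and in the interaction.

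With libraries paired by number as a replicate block, 10 genes were called between fractions in each genotype, the change being Stx3 in Abca4Ko. It changed no other call of the 10 genes. Between genotypes the numbers do not pair libraries (r from -0.52 to 0.02) and the block left 0 calls among the 10 genes, while calls over all genes went from 18 to 46 in retina and from 148 to 151 in rod TRAP. Calls over all genes in the interaction went from 1 to 18 with the block and GC and length centring. Calls over all genes in rod TRAP were 58 with log2(TPM + 1), 80 with a mean of at least 5 CPM, 94 in 1 fit of all 12 libraries, and 30 to 594 with 1 library left out (594 without Abca4Ko replicate 1). In retina they were 38, 3, 62 and 1 to 21 in the same order, 33 with no filter and 12 with the authors' scaling, and in the interaction 3 with log2(TPM + 1).

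Values called in neither fit changed sign in 19 of 150 cases in rod TRAP, 11 of 150 in retina and 23 of 230 in the interaction. After the change they lay at most 0.23 from 0. Before it they could lie further away, as for Bsn in retina, which went from -0.42 to 0.01. Leaving out the Abca4Ko libraries numbered 3 is the same as leaving out that replicate in the genotype fits, and does not apply to the control fit. With 3 libraries a group, the 95% intervals between genotypes allow differences of up to 0.51 in rod TRAP and 1.11 in retina (log2).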
